A study of Mus musculus with 24 samples.

Results

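The 3562 HindIII fragments described here are those of mouse chromosome 4 that start between 134951842 and 149951841 (mm9), which is 5 to 20 Mb below a viewpoint that the labels call 154.9. They were chosen by position alone, from the 42400 fragments of the chromosome, and make up 8.40% of them. The viewpoint was taken to be the fragment chr4:154951842-154952528, which held the highest pooled count. The chromosome ends at 155630120, so fragments at 5 to 20 Mb exist only on the lower side. The fragments ran from 42 to 56174 bases, with a median of 2874 bases against 2539 for the whole chromosome. The first fragment inside the limits, chr4:134960185-134969057, had a count in 7 of 8 libraries, and its neighbour just outside, chr4:134944295-134960178, in 6. At the near edge, the last fragment inside, chr4:149951644-149956197, had a count in 7 libraries and its outer neighbour, chr4:149956204-149957324, in 5.

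The study followed chromatin contacts in mouse embryonic stem cells, and by its title it concerns the time when differentiation sets in. Contacts were read by PE-4C-seq, in which crosslinked chromatin is cut with HindIII and religated, and the fragments joined to a chosen viewpoint are amplified and sequenced. Of its 24 libraries, 8 were made from viewpoint 154.9, with 2 biological replicates for each of 2 lines and 2 days. The other 16 libraries, from 2 other kinds of viewpoint at wild-type and mutated Oct4 alleles, were not used here. One line has the genotype OCF2ΔOCT4/SOX2 and is called the OctSox line below. The other has the genotype OCF2ΔYY1 and is called the YY1 line. Both have the strain background C57Bl/6 x 129/Sv, are given at passage 7 and were sampled on day 0 and day 3. The labels do not say what the cells received between the days, whether a line is 1 clone, or whether replicates of a group came from separate cultures, so p-values measure the spread between these libraries.

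In 4C, contact with a viewpoint falls steeply with distance along the chromosome, because nearby stretches of a flexible polymer meet often. Beyond a few megabases, the contacts that remain are patchy. They gather in blocks that tend to share chromatin state with the viewpoint, while other blocks at the same distance stay nearly empty. A fragment without counts may also be one to which reads cannot be aligned, such as a repeat.

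Total counts ran from 1318028 to 2279333 per library. The viewpoint fragment and its 2 neighbours held 14.1% to 64.7% of them, and most in the first day 3 replicate of each line (57.5% for OctSox and 64.7% for YY1). These 3 fragments were left out, which left 662576 to 1669213 counts per library as the basis of all shares. Levels are given as CPM, that is counts per 1000000 counts outside the viewpoint. No treatment of PCR duplicates is given in the sources used here, and the floors hold for counting error alone. A count of 0 allows up to 3 counts, or 1.80 to 4.53 CPM depending on the library.

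The fragments at 5 to 20 Mb took between 52211 and 138193 counts per library. In the OctSox line their share of the counts outside the viewpoint was 5.36% and 12.3% in the day 0 replicates and 10.3% and 6.32% in the day 3 replicates. For the YY1 line it was 8.78% and 8.20% at day 0, then 14.3% and 9.73% at day 3. The first day 3 replicate of the YY1 line was the highest of the 8 and the first day 0 replicate of the OctSox line the lowest, and the days overlapped in the OctSox line. Over all 8 libraries the share was 9.41% ± 2.95 (SD, n = 8), against 6.89% for the 922 fragments at 1 to 5 Mb and 17.9% for the 37581 fragments beyond 20 Mb.

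Contact at 5 to 20 Mb was spread over about 1 fragment in 2. A count was found on 45.8% and 57.7% of the 3562 fragments in the day 0 libraries of the OctSox line and on 49.0% and 36.4% in its day 3 libraries. The YY1 libraries had 64.3% and 56.3% at day 0, then 57.6% and 48.4% at day 3. No group stood clear of all others, and the mean over libraries was 51.9% ± 8.74 (SD, n = 8). The same mean was 82.3% at 1 to 5 Mb and 16.0% beyond 20 Mb, so the distance range lies between a zone that was seen nearly throughout and one that was mostly not seen. With every library thinned to 662576 counts, the share of fragments with a count ran from 34.6% to 60.8%.

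Which fragments were seen was partly the same from library to library. A count in all 8 libraries was found on 602 fragments (16.9%), and no count in any library on 784 (22.0%). The others were seen in 1 to 7 libraries, and more of them in 7 (490) than in 1 (229). At 1 to 5 Mb 43.1% of fragments were seen in all 8 libraries, and beyond 20 Mb 0.926%. The 602 fragments seen throughout held 49.0% to 59.0% of the counts of this distance range in each library. The 1490 fragments seen in at least 6 libraries held 84.7% to 90.2% of those counts. The 229 fragments seen in 1 library had a median count of 2 there and held 0.0948% to 0.471%.

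**Figure D1:**
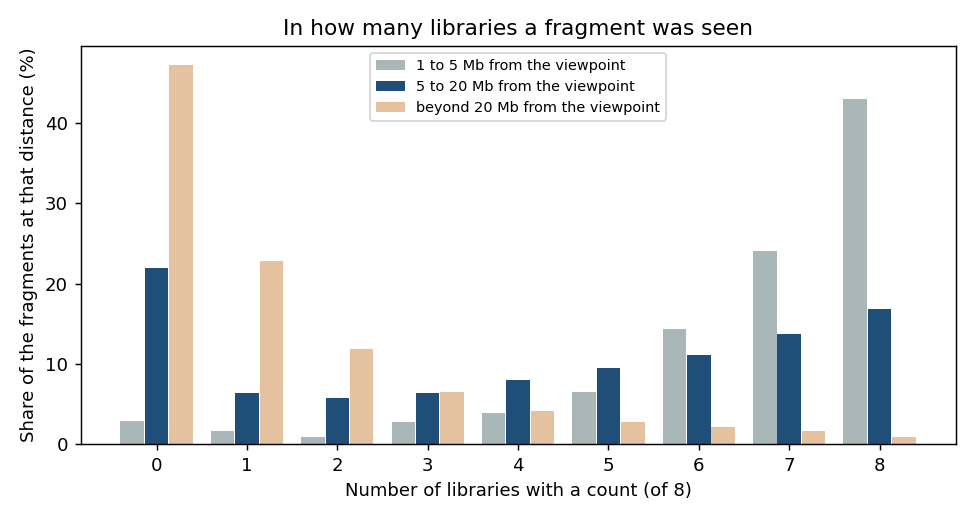
Share of fragments (%) by the number of the 8 libraries in which they had a count, for fragments 1 to 5 Mb, 5 to 20 Mb and beyond 20 Mb from the viewpoint; bars of 1 colour sum to 100%. At 5 to 20 Mb both ends are filled, with 22.0% of fragments never seen and 16.9% seen in all 8 libraries.

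Replicates shared between 56.5% and 88.7% of the fragments on either replicate's own list. In the OctSox line at day 0, 1378 fragments had a count in both replicates, which is 84.4% of the 1632 seen in the first and 67.0% of the 2056 seen in the second. At day 3 of that line 986 were shared, or 56.5% of 1744 and 76.0% of 1298. The YY1 replicates shared 1777 at day 0 (77.6% of 2289 and 88.7% of 2004) and 1458 at day 3 (71.1% of 2050 and 84.6% of 1724). The smallest overlap relative to the larger list was that of the OctSox line at day 3.

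Longer fragments were seen more often, a description given without a test. Of 4 length classes of equal size, the shortest (42 to 1342 bases) had a count on 42.9% ± 10.7 of fragments (SD, n = 8 libraries) and the longest (5604 to 56174 bases) on 61.0% ± 7.74. The share seen in all 8 libraries was 7.41%, 12.7%, 21.0% and 26.5% from the shortest to the longest class. The median length was 4630 bases among fragments seen in all 8 libraries and 2517.5 bases among those never seen. The median length also differed between the 3 stretches described below, at 3346, 2473 and 3189 bases from the nearest to the farthest, and the part of length in their contrast was not tested.

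To follow contact along the region, it was cut into 30 fixed windows of 500 kb, numbered here by the distance of their centre from the viewpoint. Contact did not fall evenly with distance. It was highest from 5 to 7.5 Mb, nearly vanished around 8.75 Mb, stayed low to 13 Mb and was higher again beyond. The 3 stretches described next were drawn after the window values had been seen, so they are a description and carry no test.

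The near stretch, windows at 5.25 to 7.25 Mb (chr4:147451842-149951841, 549 fragments), had 64.6 ± 20.7 CPM per fragment (SD, n = 8). In it 84.0% of fragments had a count in an average library, and 49.2% had one in all 8. The middle stretch, windows at 7.75 to 12.75 Mb (chr4:141951842-147451841, 1481 fragments), had 7.82 ± 2.25. There 23.1% of fragments had a count, and 46.8% had none in any library. The stretch was not evenly poor, since its window nearest to the viewpoint, at 7.75 Mb, had 28.6 ± 8.37 CPM per fragment, close to the mean of the far stretch. The far stretch, windows at 13.25 to 19.75 Mb (chr4:134951842-141951841, 1532 fragments), had 30.7 ± 10.8, with 68.3% of fragments counted. Contact per fragment was lower in the middle stretch than in the far one in each of the 8 libraries, at 0.196 to 0.321 of its level. The far stretch stood at 0.303 to 0.560 of the near one.

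**Figure D2:**
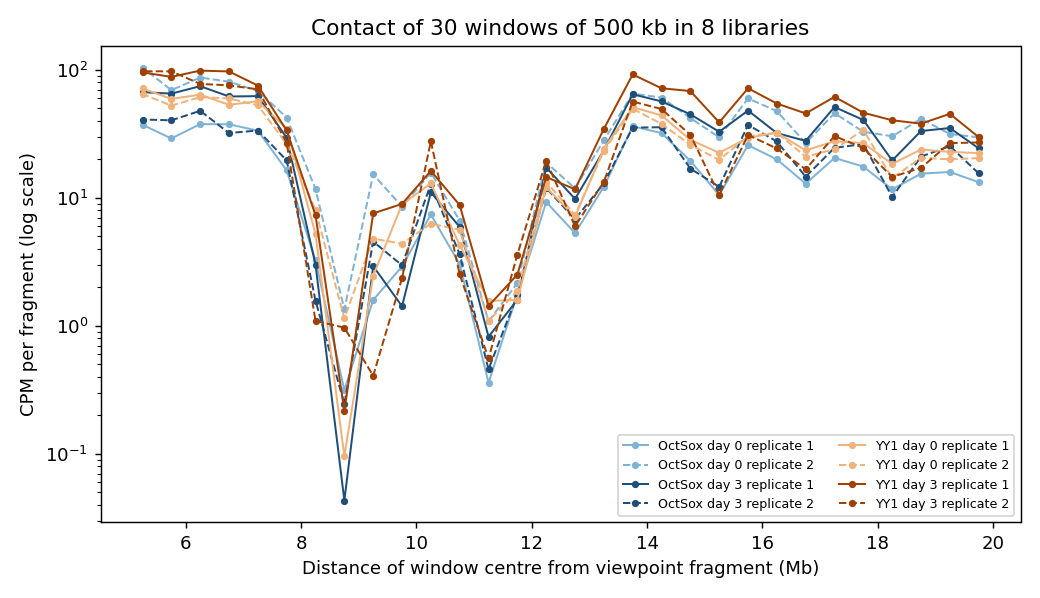
CPM per fragment (log scale) in 30 windows of 500 kb, by distance of the window centre from the viewpoint (Mb); each line is 1 of 8 libraries, dashed for the second replicate. No library exceeds 1.34 at 8.75 Mb or 1.56 at 11.25 Mb, and the window at 13.75 Mb, at 35.3 to 91.9, is the highest beyond 7.5 Mb in 7 of the 8 libraries, the second day 3 replicate of the OctSox line being the exception.

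The highest window was the nearest, at 5.25 Mb (chr4:149451842-149951841), with 37.2 and 104 CPM per fragment in the OctSox day 0 libraries and 66.8 and 40.9 in the day 3 libraries. The YY1 libraries had 71.5 and 64.6 at day 0, then 95.3 and 97.4 at day 3. The days overlapped in the OctSox line and not in the YY1 line. The window at 13.75 Mb (chr4:140951842-141451841) lies far beyond it and was among the well contacted ones. Its OctSox values were 36.2 and 65.0 at day 0, then 64.3 and 35.3 at day 3. Its YY1 values were 51.0 and 49.4 at day 0, then 91.9 and 56.4 at day 3, so the days overlapped in the OctSox line and were narrowly apart in the YY1 line. Such separate days were common in the YY1 line, in 50% of the 30 windows and 81.5% of all 303. With TMM factors the log2 difference of day 3 over day 0 was negative there, at -0.84 (5.25 Mb) and -0.77 (13.75 Mb). On average the window at 13.75 Mb ranked as number 6 of the 30, with 56.2 ± 18.2 (SD, n = 8), and did not differ beyond that spread from the window at 7.25 Mb (56.6 ± 16.0).

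At the other end, the window at 8.75 Mb (chr4:145951842-146451841) had 0.545 ± 0.517 CPM per fragment over its 105 fragments (SD, n = 8). The 4 OctSox libraries had 0.313, 1.34, 0.0430 and 0.245 CPM per fragment, and the 4 YY1 libraries 0.0955, 1.14, 0.216 and 0.966. No library exceeded 1.34 there, and the lowest value rests on 4 reads. Of its 105 fragments 8 had a count in any library. In 5 of the 8 libraries 1 fragment held 88.4% or more of the reads of the window, and in 4 of these it was chr4:146021720-146024113. The window at 11.25 Mb (chr4:143451842-143951841) had 0.918 ± 0.446, and that at 11.75 Mb 2.10 ± 0.676. Contact was higher on both sides of this pair, with 5.04 ± 2.09 at 10.75 Mb and 14.6 ± 3.64 at 12.25 Mb.

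In 6 windows, those at 8.25 to 9.75 Mb and at 11.25 and 11.75 Mb, more fragments were never seen than seen. They were picked by that criterion and hold 799 fragments, 568 of the 784 never seen among them, and such fragments also lower the CPM per fragment of a window. The longest unbroken run without any count was 55 fragments over 198 kb (chr4:146319296-146516986), and the next 38 fragments over 194 kb (chr4:145827611-146021713). The longest run seen in all 8 libraries was 17 fragments over 90.4 kb (chr4:147938729-148029170). It lies within a run of 34 fragments seen in at least 6 libraries (chr4:147874451-148056080). In the far stretch the longest run seen in at least 6 libraries was 24 fragments at chr4:140901143-141038079, across the edge of the window at 13.75 Mb that is farther from the viewpoint. Whether reads can be aligned to the empty fragments was not tested.

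**Figure D3:**
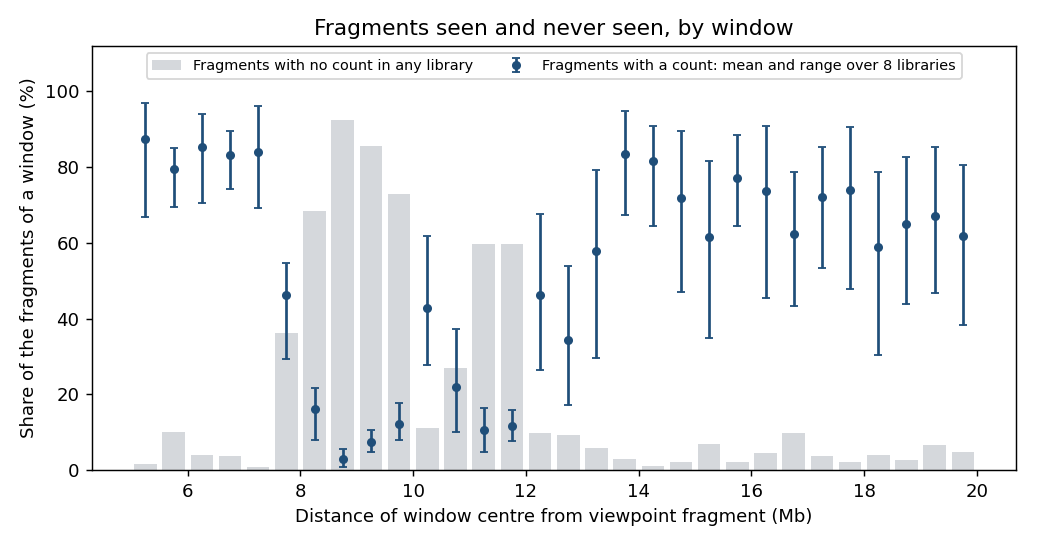
Share of fragments (%) in each 500 kb window that had a count (points: mean over 8 libraries; bars: lowest to highest library) and share that had none in any library (grey), by distance from the viewpoint (Mb). The grey share peaks in the window at 8.75 Mb, where 97 of 105 fragments were never seen, and the points are lowest there.

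The windows were then set against the fall of contact with distance, to see which held more or less than their distance alone gives. A smooth trend of log2 counts per fragment on log distance was fitted in each library over the whole chromosome more than 1 Mb from the viewpoint, and the deviations were tested against 0 with limma. All libraries share the HindIII map and its alignable fragments, and the part of these in a deviation was not tested. The p-values thus measure only how alike the libraries were. Of the 30 windows, 23 passed at an adjusted p of 0.05, with 13 higher and 10 lower than the trend. Of all 302 windows of the chromosome 50.7% passed (27.2% higher and 23.5% lower), so many windows elsewhere also depart from the trend. In 22 of the 30 windows all 8 libraries deviated in the same direction, against 115 of 302 (38.1%) on the whole chromosome.

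The window at 13.75 Mb stood highest above the trend. Its log2 deviation was 1.15, 1.18, 1.00 and 0.85 in the OctSox libraries (day 0, then day 3) and 1.35, 1.44, 1.29 and 1.37 in the YY1 libraries. All 8 libraries were above the trend, with a mean of 1.20 ± 0.11 (SE, limma adjusted p = 0.000105). Its neighbour at 14.25 Mb followed with 1.04 ± 0.11 (adjusted p = 0.000229, limma). The windows at 15.75 Mb (0.86 ± 0.12), 6.25 Mb (0.82 ± 0.12) and 5.25 Mb (0.72 ± 0.15) completed the 5 highest.

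The window at 8.75 Mb was the lowest, with a log2 deviation of -6.56 ± 0.58 (SE, limma adjusted p = 0.000105). That at 11.25 Mb, at -5.04 ± 0.17, had the smallest adjusted p of the region (5.8e-07, limma). Its 8 libraries lay between -5.67 and -3.92. The windows at 11.75 Mb (-3.69), 9.25 Mb (-3.25) and 8.25 Mb (-3.04) were also below the trend in all 8 libraries. Counting only fragments seen in at least 1 library, an alternative chosen after the values were seen, 21 of the 30 windows passed (12 higher, 9 lower) against 32.9% of all windows. On that basis the window at 11.25 Mb was the lowest, at -3.88, followed by that at 8.75 Mb, which went from -6.56 to -2.98 (adjusted p = 0.00675, limma). The window at 11.75 Mb was at -2.53 and that at 8.25 Mb at -1.51, and the window at 9.25 Mb no longer passed (-0.59, adjusted p = 0.303, limma).

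As a description of how uneven the profile was, the SD of the log2 deviations over windows was 2.02 ± 0.268 for the 30 windows and 1.62 ± 0.242 for the 264 windows beyond 20 Mb (mean ± SD over 8 libraries). It was larger at 5 to 20 Mb in 6 of 8 libraries and smaller in the other 2. This comparison was chosen after the profile had been seen, and it carries no test because all libraries share the HindIII map.

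The deviations were also compared between days and between lines with limma, an alternative chosen after the values had been seen. Between days, 0 of the 30 windows passed (0% of all) and 2 had an unadjusted p under 0.05 (3.64% of all). Between lines, 0 passed (0.331% of all) and 0 had an unadjusted p under 0.05 (7.95% of all).

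The order of the windows was shared by the lines and the days. Spearman's rho of counts over the 30 windows had a median of 0.967 between replicates (4 pairs) and of 0.947 between libraries of the other line and other day (8 pairs). Over the 2778 single fragments with any count, the medians were 0.476 and 0.456. These are descriptions, with no test, because all libraries share the HindIII map and its alignable fragments. The order of single fragments thus varied widely even between replicates, and that of windows little.

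Single fragments of high count lay almost all in the near stretch. Of the 12 fragments with the highest mean or the highest lowest-library level, 11 lay within 7.49 Mb of the viewpoint. The steadiest of the leading fragments, chr4:149892195-149901328, at 5.06 Mb, had 275, 333, 216 and 348 CPM in the OctSox libraries (day 0, then day 3) and 175, 274, 317 and 227 in the YY1 libraries. Its SD of 61.2 CPM was the smallest of the 12, and the days overlapped in both lines. The exception by position was chr4:138947802-138958370, at 16.0 Mb, with a mean of 213 CPM and no library under 87.3. It was at 87.3, 325, 108 and 427 in the OctSox libraries and at 102, 92.3, 409 and 150 in the YY1 libraries, so replicates of 1 group differed more than the groups did.

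The highest means were set by 1 library. The fragment chr4:149070883-149081328, at 5.88 Mb, had 121 to 586 CPM in 7 libraries and 1807 in the second day 3 replicate of the YY1 line. Similarly, chr4:149853179-149858027, at 5.10 Mb, had 37.7 to 190 in 7 libraries and 2352 in that replicate, which held 78.5% of the sum. The same replicate was the highest on 6 of the 12 leading fragments. The other day 3 replicate of the YY1 line had 190 on the second fragment, far below its partner. The 36 highest fragments of the region held 23.8% of its counts in that replicate and 9.42% to 16.1% in the other 7.

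**Figure D4:**
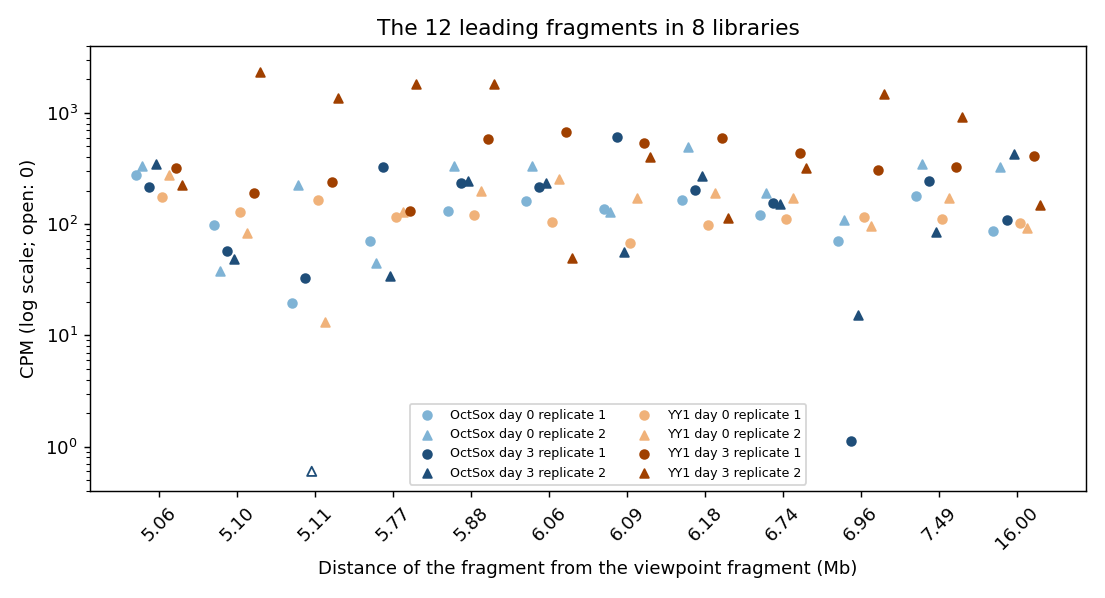
CPM (log scale; an open symbol marks 0) of the 12 leading fragments, ordered by distance from the viewpoint (Mb), in 8 libraries; circles are first and triangles second replicates. The second day 3 replicate of the YY1 line lies far above the rest on 6 fragments, at up to 2352.

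Some counts came from 1 library only. The highest were 115 reads on chr4:144375266-144382061 and 108 reads on chr4:143260879-143263532, both in the second day 0 replicate of the OctSox line, and 95 reads on chr4:144147594-144148845 in the first day 0 replicate of the YY1 line. All 3 lie between 10.6 and 11.7 Mb from the viewpoint, in the poorly contacted middle stretch. The other 7 libraries had no read there. Of the 229 fragments seen in 1 library, 85 rested on 1 read and 59 on more than 10.

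Day 3 was compared with day 0 to ask whether contact in this range moved during the 3 days. No difference of the region as a whole passed its test. The share of counts was 8.67% ± 2.86 at day 0 and 10.2% ± 3.25 at day 3 (SD, n = 4 each), a difference of 1.50 percentage points (exact two-sided permutation within lines, p = 0.556, adjusted 0.611 over 6 tests). Within the lines it was -0.516 points (OctSox) and 3.51 points (YY1). With the 3 viewpoint fragments kept in the denominator the difference turned to -1.55 points, and without the first day 0 replicate of the OctSox line to -0.242. With 36 arrangements the smallest p such a test can give is 0.0556, before any adjustment.

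The share of fragments with a count was 56.0% ± 7.64 at day 0 and 47.8% ± 8.68 at day 3 (SD, n = 4 each). The difference of -8.18 points was negative in both lines, at -9.07 for OctSox and -7.29 for YY1 (exact permutation p = 0.222, adjusted 0.333). Thinned to equal depth it was -6.89 points. Contact per fragment at 5 to 20 Mb over that beyond 20 Mb, on a log2 scale, was 2.11 and 3.09 in the OctSox day 0 libraries and 2.56 and 1.81 in the day 3 libraries. For the YY1 line it was 3.11 and 3.02 at day 0, then 2.53 and 1.80 at day 3. The days overlapped in the first line and not in the second. The mean difference was -0.66 (exact permutation p = 0.111, adjusted 0.333), with -0.42 for OctSox and -0.90 for YY1. Beside it, the share of counts beyond 20 Mb was 10.7% to 15.2% in the day 0 libraries and 18.4% to 29.5% in the day 3 libraries.

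Inside the region the slope of contact against distance, both as log10, was between -0.157 and 0.115 in the day 0 libraries and between -0.151 and 0.500 in the day 3 libraries. The difference of 0.239 between days did not pass (exact permutation p = 0.167, adjusted 0.333).

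Window by window, edgeR made no call between days at an adjusted p of 0.05. Of the 30 windows, 0 passed in the OctSox line (0% of all 303 windows), 2 had an unadjusted p under 0.05 (0.66% of all) and DESeq2 called 0 (0% of all). For the YY1 line 0 passed, against 1.32% of all windows, and 9 had an unadjusted p under 0.05 (12.9% of all). DESeq2 called 4 there, all lower at day 3, while it called 71.4% of the 21 windows to which it gave an adjusted p. Of the 30 windows, only those at 5.25 to 7.25, 13.75, 14.25 and 16.25 Mb had such an adjusted p. Over both lines 0 passed (0% of all), 4 had an unadjusted p under 0.05 (6.93% of all) and DESeq2 called 0 (0%). The count of the YY1 line depended on which day 3 library was used, and it was not stable when 1 of them was left out. Such a fit rests on a lone day 3 library that is assumed to vary like the others. The share of all windows called in it was not worked out, so no count is given.

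The sign of the day difference depended on the scaling. With TMM factors all 30 windows had a negative log2 difference in both lines (medians -0.55 for OctSox and -0.92 for YY1). Scaled by total counts, the median was -0.06 for OctSox and 0.42 for YY1, where 25 of 30 windows were positive. The median of all 303 windows moved too, from -0.11 to 0.35 for OctSox and from 0.37 to 1.70 for YY1. Relative to that median, the windows at 5 to 20 Mb stood at -0.44 (OctSox) and -1.30 (YY1) with TMM factors, and at -0.41 and -1.28 with total counts. All 30 windows of the YY1 line lay below the median of all windows under TMM factors, DESeq2 size factors and total counts, and 29, 29 and 28 of the OctSox line did. This was not tested as a set. Most windows of the chromosome lie beyond 20 Mb (264 of those in the distance trend), so the median of all is largely theirs. Beyond 20 Mb the YY1 median was 0.48 with TMM factors and 1.83 with total counts. The share of counts beyond 20 Mb was higher at day 3, as given above, and its part in this offset was not tested.

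**Figure D5:**
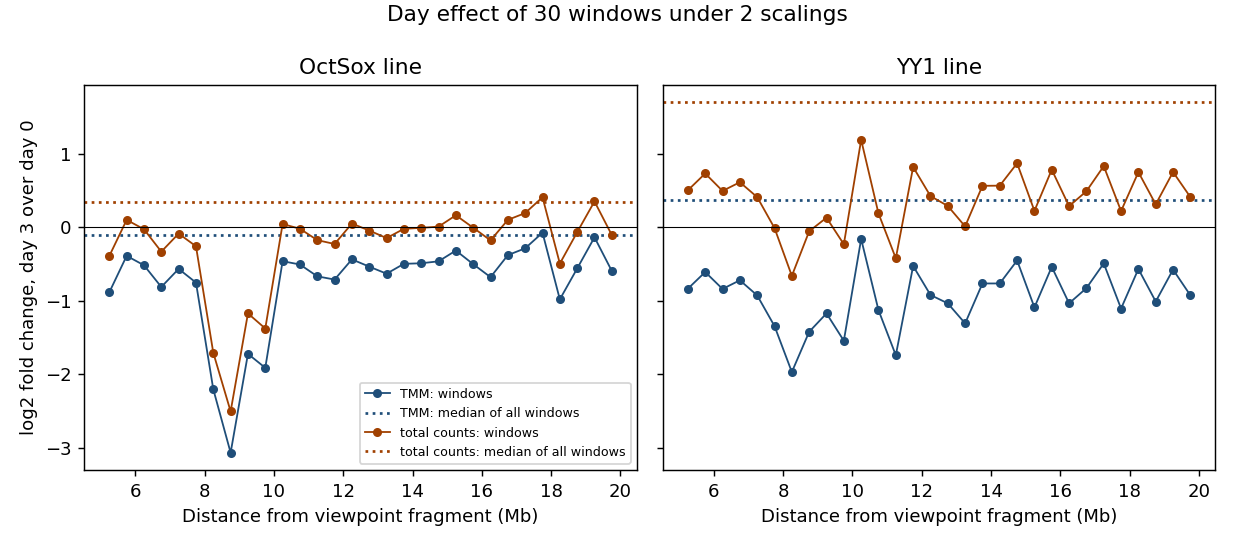
Fitted log2 difference of day 3 over day 0 in the 30 windows, by distance from the viewpoint (Mb), with TMM factors and with total counts; dotted lines mark the median of all windows of the chromosome under the same scaling. In the YY1 line the 30 values are negative with TMM factors and mostly positive with total counts, and lie below the dotted line under both. With edgeR and TMM factors no window passed at an adjusted p of 0.05.

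The window with the smallest p between days in both lines together lay in the trough, at 8.25 Mb (chr4:146451842-146951841). It held 438 and 1593 reads in the OctSox day 0 libraries and 369 and 229 in the day 3 libraries. For the YY1 line it held 1083 and 1863 reads, then 672 and 215. The raw day 3 counts were below the day 0 counts in each line, but as a share of counts the days overlapped in the YY1 line. Its log2 difference was -1.94 ± 0.53 (SE) with an edgeR adjusted p of 0.416. With total counts in place of TMM factors the log2 difference of this window was -1.71 for OctSox and -0.66 for YY1.

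Within the YY1 line alone, the window at 7.75 Mb (chr4:146951842-147451841) at the inner edge of the trough had the smallest p. Its reads were 6171 and 5209 at day 0, then 2646 and 4534 at day 3, and the fitted log2 difference was -1.34 ± 0.45 (edgeR adjusted p = 0.299). As a share of counts the days overlapped there, with means of 3622 CPM at day 0 and 3593 CPM at day 3. The windows at 8.25 Mb and 13.25 Mb came next (edgeR adjusted p = 0.353 for both).

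For single fragments, 1389 of the 3562 had enough counts to be tested between days in the OctSox line, 1772 in the YY1 line and 2007 over both lines. No fragment passed with edgeR in any of the 3 tests, as on the whole chromosome (0% of 4840, 6707 and 9241 fragments). At an unadjusted p under 0.05 were 29, 42 and 56 of them (2.09%, 2.37% and 2.79%), where 2.87%, 5.44% and 8.18% of all fragments were. DESeq2 called 7, 11 and 12, where it called 2.04%, 3.82% and 1.96% of the fragments to which it gave an adjusted p.

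The fragment chr4:147627120-147634461, at 7.32 Mb, had the smallest p of the region in the YY1 line. It held 198 and 287 reads at day 0, then 1 and 3 at day 3. For the OctSox line it held 7 and 83 at day 0, then 1 and 1, so that all 4 day 0 libraries lay above all 4 day 3 libraries. Its edgeR adjusted p between the YY1 days was 0.639 and the DESeq2 adjusted p 0.0162. In the authors' deposited table of the YY1 line it is the 1 fragment of the 867 listed from this region that passed, with a log2 difference of -3.95 (the authors' SE 0.90, adjusted p = 0.00671). The authors' deposited table of the YY1 line called 0.51% of its fragments with an adjusted p. Of the 867, 737 had an adjusted p and 38 had a p under 0.05 (4.42% of all listed). The authors' deposited table of the OctSox line listed 575 fragments of this region but gave an adjusted p to only 2. It called 0 of these (0% of all with an adjusted p), and 11 of the 575 had a p under 0.05 (2.43% of all listed).

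For the OctSox line the smallest p went to chr4:136166509-136172368, at 18.8 Mb, with 81 and 207 reads at day 0, then none at day 3 (edgeR adjusted p = 0.826, DESeq2 0.0257). The same fragment had 222 and 110 reads in the YY1 day 0 libraries and 95 and 1 in the day 3 libraries. In the other direction, chr4:135527903-135529273, at 19.4 Mb, had 2 and 4 reads at day 0, then 203 and 153 at day 3 (edgeR adjusted p = 0.826, DESeq2 0.0304). The YY1 libraries had 91 and 251 reads there at day 0, then 46 and 74 at day 3, the opposite order in reads. As CPM the YY1 days overlapped, with 60.8 and 150 at day 0, then 69.4 and 52.1 at day 3. Between the YY1 days, chr4:140449438-140450318, at 14.5 Mb, had 8 and 1 reads at day 0, then 78 and 393 at day 3 (edgeR adjusted p = 0.639, DESeq2 0.0119).

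Presence and absence gave another view of the days, read after the values had been seen and without a test. In the OctSox line 139 fragments (3.90% of the region) had a count in both day 0 replicates and in neither day 3 replicate. The reverse held for 39 (1.09%). For the YY1 line the numbers were 108 (3.03%) and 23 (0.646%). The share of all fragments of the chromosome with these patterns was not worked out, so they are not read as particular to this region. Detection was also lower at day 3 as a whole, as given above, and its part in the imbalance between days was not tested. Over both lines 13 fragments had a count in all 4 day 0 libraries and none at day 3 (0.0778% of the chromosome's fragments did), and 0 had the reverse (0.0354%). Among fragments seen in any library, the first pattern was found on 0.468% in this region and 0.139% on the whole chromosome. For the reverse these shares were 0% and 0.0630%. A fragment seen in fewer than 4 libraries cannot show either pattern. Beyond 20 Mb 8577 fragments were seen in 1 library and 4448 in 2, against 229 and 207 in this region. The part of this in the shares was not tested. The leading one of the 13, chr4:134994530-134996503, at 20.0 Mb, held 62 and 109 reads (OctSox) and 53 and 91 reads (YY1) at day 0 (edgeR adjusted p = 0.590, DESeq2 0.00422). The second, chr4:136403934-136404643, held 1, 91, 135 and 68, and 2 of the 13 held 5 reads in all.

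The lines were compared in the same way, to ask whether contact differed between the 2 genotypes. The YY1 line had a share of counts higher by 1.66 points (-0.357 at day 0 and 3.67 at day 3; exact two-sided permutation within days, p = 0.611) and a count on more fragments by 9.38 points (p = 0.222, adjusted 0.333, exact permutation). Without the first day 0 replicate of the OctSox line the difference in share was -0.0839 points. No window passed with edgeR (0% of all 303). An unadjusted p under 0.05 was found for 0 of the 30 (5.61% of all) and a DESeq2 call for 0 (0.66%). The smallest p was at 9.75 Mb, where the OctSox line had 384, 1135, 171 and 424 reads and the YY1 line 1806, 993, 806 and 454 (log2 0.84 ± 0.48, edgeR adjusted p = 0.618). There the lines overlapped.

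Of 2007 fragments tested 0 passed between the lines with edgeR (0% of all 9241), 75 had an unadjusted p under 0.05 (8.39% on the whole chromosome) and DESeq2 called 9 (1.22%), all higher in the YY1 line. The smallest p went to chr4:143003841-143005374, at 11.9 Mb, with 1 read in the 4 OctSox libraries together and 37, 99, 80 and 372 reads in the YY1 libraries (edgeR adjusted p = 0.577, DESeq2 0.00183). Next came chr4:136869763-136870826, at 18.1 Mb, with no OctSox read and 16, 52, 110 and 136 YY1 reads (edgeR adjusted p = 0.577, DESeq2 0.00837). It leads the 14 fragments that had a count in all 4 YY1 libraries and in no OctSox library (0.158% of the chromosome's fragments). The reverse held for 1 fragment (0.00943%), chr4:142272963-142279824, with 9, 25, 7 and 4 reads in the OctSox line. Among fragments seen in any library, the first pattern was found on 0.504% in this region and 0.281% on the whole chromosome. For the reverse these shares were 0.0360% and 0.0168%. Here too, fragments seen in fewer than 4 libraries cannot show either pattern, and they are more common on the whole chromosome. Of the 4 YY1 libraries 3 had more counts outside the viewpoint than any OctSox library, and the part of depth in these numbers was not tested.

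Whether the day difference itself differed between the lines was tested by an interaction term. With edgeR 0 windows passed (0% of all 303), 0 of the 30 had an unadjusted p under 0.05 (1.98% of all) and DESeq2 called 0 (0%). No fragment of the region passed, against 0.0325% of all fragments tested, while 79 had an unadjusted p under 0.05 (9.07%) and DESeq2 called 8 (2.09%). The smallest p was that of chr4:147996056-147997730, at 6.96 Mb. Its OctSox reads were 68 and 108 at day 0, then 1 and 16 at day 3, and its YY1 reads 175 and 161, then 204 and 2107 (edgeR adjusted p = 0.264). The value of 2107 is from the second day 3 replicate of the YY1 line, and the fragment is 1 of the 6 leading fragments on which that replicate was the highest.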

How the data were processed

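PE-4C-seq was run on 2 mouse embryonic stem cell lines at 2 days, with 2 replicates each. Alignment was by Bowtie to mm9, per the submitters' processing notes (version, counting rules and filters: not given in the sources used here). Per the files, the authors deposited raw counts per HindIII fragment, with a list of fragment positions in the same order. Their own day comparison is deposited as a signal (the mean after normalisation), a log2 fold change and SE, a test score and p-values, per the file headers. Against the counts, that fold change runs as day 0 over day 3, so it was turned to day 3 over day 0. Rows of the authors' deposited tables carry no position and were placed in order on fragments whose median count in the line was 40 or more, less the viewpoint fragment. The fold changes then correlated with those of the counts at 0.935 (OctSox) and 0.963 (YY1), against -0.0404 to 0.0288 when shifted.

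Libraries were grouped by title. The members, windows and tests were chosen with earlier results of these data known. Windows of 500 kb start at the lower limit and cover the whole chromosome. The main test on counts was that of edgeR 4.0.16 under R 4.3.3 (TMM, filterByExpr with a minimum count of 10, glmQLFit, glmQLFTest) and Benjamini-Hochberg adjustment at 0.05 over the whole chromosome. DESeq2 1.42.0 was an alternative. The SE of an edgeR log2 value is its size over the square root of F. Deviations are log2 of (count + 1) per fragment less a lowess trend on log10 distance per library, over windows with at least 20 fragments, tested with limma 3.58.1 with line and day as centred covariates. Single values per library were compared by exact permutation. Code was tested on simulated data. Scripts ran under Python 3.11.15 with pandas 2.3.3, numpy 2.4.6, matplotlib 3.10.9 and scipy 1.17.1.

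Candidates for naming were, per test, the 5 largest rises and falls among calls with separate groups. Where fewer than 3 passed, they were the 3 smallest p. Further candidates were the 5 highest and 5 lowest deviations, the 10 fragments with the highest mean share and the 5 with the highest lowest-library share. The 3 highest seen in 1 library and the edge fragments were added. Not all candidates are printed. Over both lines, 2 rises at day 3 are left out above, chr4:144685470-144686024 and chr4:144608317-144608899. Most of their day 3 reads were in second replicates. Alternatives were other scalings, filters, window sizes, viewpoint exclusions and libraries left out. For the deviations 2 and for day and line 2 were added after the data had been seen. The annotation at hand is of another build than mm9, so no gene is assigned and no sequence is printed.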

Additional observations from a re-analysis of the deposited data

Results flagged for a closer look

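Of 46 values examined over the 8 libraries, 10 had 1 library far from the other 7 (a gap above 0.526 of the whole range, Dixon's 95% limit). That limit is passed in about 1 in 20 cases for independent normal values. The values here share 8 libraries, and CPM was taken without a log scale, so that rate is no measure of chance for them. The fragments and windows were not chosen independently of such values, since a high mean can come from 1 library. No explanation was tested.

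In 6 of the 10, the library was the second day 3 replicate of the YY1 line on a leading fragment. It had 1807 CPM on chr4:149070883-149081328 (121 to 586 in the other 7), 2352 on chr4:149853179-149858027 (37.7 to 190) and 1810 on chr4:149177151-149178836 (34.3 to 330). It had 917 on chr4:147462806-147468228 (85.7 to 346), 1484 on chr4:147996056-147997730 (1.13 to 308) and 1353 on chr4:149838130-149842584 (0 to 240). The same replicate stood out in the windows at 11.75 Mb, with 3.59 CPM per fragment (1.59 to 2.51), and at 10.25 Mb, with 27.6 (6.27 to 16.2).

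The first day 3 replicate of the YY1 line stood out on chr4:148889702-148895705, with 678 CPM (50.0 to 331), and in the window at 16.75 Mb, with 45.6 per fragment (12.9 to 27.8).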

How the results depend on the processing

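Over 17 results, 211 alternatives were run. In 190 the result kept its direction or stayed within 1.5 times its count, in 18 a count moved by more, and in 3 a difference turned sign. Tests at 2 against 2 libraries and fragments with few reads limit what can be seen, and counting depth outside the viewpoint differed between libraries by more than the groups did. The causes of the changes below were not tested. Replicate numbers carry no label of a shared batch. Same-numbered replicates deviated together over the 30 windows with r = 0.353 in the OctSox line and 0.128 in the YY1 line, with only 2 numbers, so the paired fit is given only here. With a replicate block 1 window passed between days over both lines (0 without), and 22 windows deviated from the distance trend (23 without). The shares of all windows were not worked out for that block.

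The day difference in share of counts was -1.55 points with nothing left out at the viewpoint and -0.242 without the first day 0 replicate of the OctSox line, and the line difference -0.0839 without that library. With 1 library left out in turn, the day difference in share ran from -0.242 to 3.24 points and the line difference from -0.0839 to 3.40. The share of fragments with a count differed by -11.3 to -5.05 points between days and by 6.25 to 12.5 between lines. The log2 ratio to beyond 20 Mb differed by -0.90 to -0.41 between days, and the slope by 0.132 to 0.346.

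For windows, leaving out 1 library gave 0 to 26 calls between days in the YY1 line, 0 to 3 over both lines, 0 to 0 in the OctSox line, for the line difference and for the interaction, and 22 to 23 deviations. For fragments it gave 0 to 1 calls in the OctSox line, 0 to 19 in the YY1 line (19 without the first day 3 replicate, with 16 higher and 3 lower at day 3, and 12 without the second, with 2 higher and 10 lower), 0 to 1 over both lines, and 0 to 0 for line and interaction. DESeq2 called 4 windows in the YY1 line, and 7, 11, 12, 9 and 8 fragments in the OctSox, YY1, both-line, line and interaction tests. Its shares over the whole chromosome are given with each test above. With no filter on low counts 1 fragment passed in the YY1 line. For the deviations, 42 of 60 windows of 250 kb and 10 of 15 windows of 1 Mb passed. For these 2 window sizes and for the unfiltered fit, the shares over the whole chromosome were not worked out. With limma on the deviations, an alternative chosen after the data had been seen, 0 windows of the region passed for day (0% of all, 2 of the 30 at an unadjusted p under 0.05) and 0 for line (0.331% of all, 0 at an unadjusted p under 0.05).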
